A study of Mus musculus with 2 samples.

Results

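Summits of Hnf4a ChIL-seq were examined at 10 genes of the Wnt pathway and of liver zonation, taken from 21887 protein-coding genes of the RefSeq annotation of mouse GRCm38.p6, the assembly of mm10. The genes were chosen by name, and a summit belonged to a gene if it lay inside it or within 50 kb of either end. Hnf4a is a DNA-binding nuclear receptor central to the identity of hepatocytes. In ChIL-seq (chromatin integration labelling), a probe carried by the antibody is joined by Tn5 transposase to DNA close to the protein, and RNA made from its T7 promoter inside the fixed cells is sequenced. The cells were iHepCs, hepatocyte-like cells made from wild-type C57BL/6J mouse embryonic fibroblasts with a retroviral vector carrying Foxa2 and Hnf4a, so Hnf4a was also supplied from the vector. They were grown with 10% serum, 1 µg/ml insulin, 100 nM dexamethasone and 10 mM nicotinamide, with epidermal growth factor and hepatocyte growth factor at 20 ng/ml, and no Wnt ligand or inhibitor is named in the labels. There is 1 group of 2 samples, called biological replicates by the series text, and the peak names put both in the same numbered lot of cells. Their spread may therefore leave out differences between separate rounds of reprogramming. No other condition and no control library were analysed, so no test between conditions was possible and all values below are descriptions.

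Canonical Wnt signalling turns on the stability of beta-catenin. Without a ligand, a complex built on Axin and Apc marks beta-catenin for destruction, and with a ligand beta-catenin enters the nucleus and acts with DNA-binding factors of the TCF/LEF family. In the liver this pathway is strongest beside the central vein, where it maintains the pericentral hepatocyte programme, including Glul, while hepatocytes near the portal vein express a different set of enzymes. Hnf4a is known for its part in the periportal programme and can work against Wnt-dependent genes in hepatocytes.

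The deposited lists hold 21283 summits in replicate 1 and 24097 in replicate 2. Each summit is 1 base with a score, taken here as the authors' −log10 q-value, whose median was 7.32 for replicate 1 and 6.67 for replicate 2. The lists do not give the depth of sequencing, and scores were not scaled between replicates, so ranks are given beside them, with rank 1 for the highest score. A summit is called shared where the other replicate has one within 100 bp, which held for 43.2% of replicate 1 and 38.1% of replicate 2. The lists show occupancy and not expression, so the identity of the cells could be examined only through occupancy. Within 50 kb, 5 of 6 hepatocyte marker genes and 1 of 6 fibroblast marker genes had a shared summit. Every shared summit of Afp is also counted for Alb, and that of Apoa1 lay inside Sik3. Among all protein-coding genes 47.9% had a shared summit within 50 kb, and among those under 20 kb 42.0%.

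Of the 10 genes, 6 had at least 1 shared summit: Axin2, Lgr5, Glul, Znrf3, Tcf7l2 and Lef1. Among all protein-coding genes 47.9% had one, or 50.1% without olfactory receptor genes and 39.0% of all genes of any type, so 6 of 10 is not far from the background. Rnf43, Apc and Tbx3 had summits in 1 or both replicates but none shared, and Ctnnb1, the gene of beta-catenin itself, had no summit in either. A replicate 1 summit was present at 8 genes, against 70.2% of all genes, and a replicate 2 summit at 9, against 73.4%. Summits at the 10 genes numbered 23 in replicate 1 and 31 in replicate 2 (27.0 ± 5.66, SD, n = 2), with 13 shared pairs. Replicate 2 held more summits than replicate 1 at 5 genes and as many at the other 5. Over the windows the ratio of replicate 2 to replicate 1 was 1.35, against 1.13 over the whole lists.

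**Figure D1:**
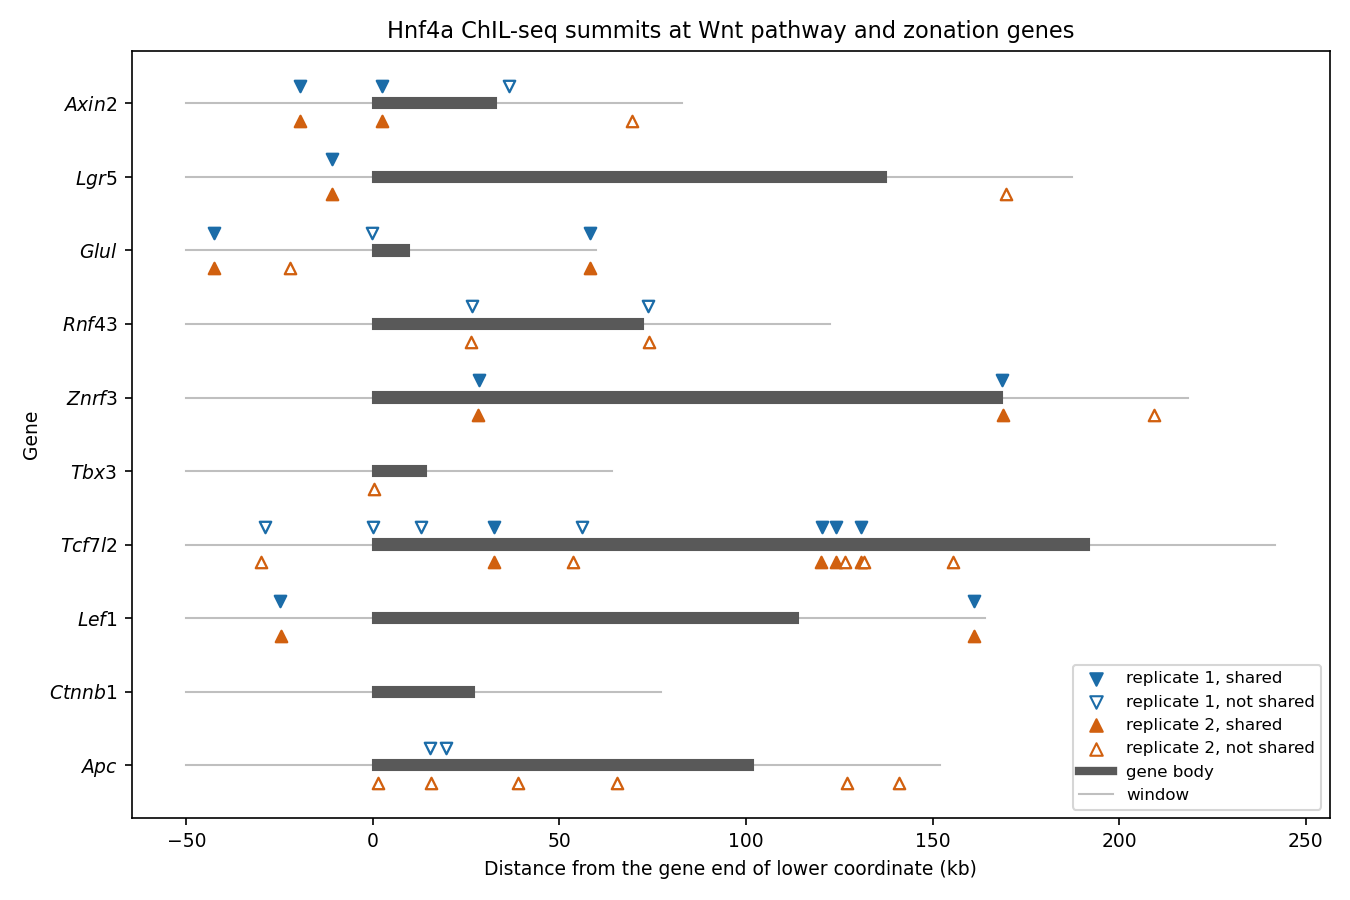
Positions of all summits at the 10 genes, in kb from the gene end of lower coordinate, with genes as dark bars and the 50 kb windows as grey lines. Downward blue triangles are replicate 1 and upward orange triangles replicate 2, filled where shared; Tcf7l2 carries 4 filled pairs inside the gene, while Ctnnb1 carries none.

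Long genes have more room for summits, so counts were also read against genes of like length. Of the 5 genes of 100 kb or more, 4 had a shared summit (Lgr5, Znrf3, Tcf7l2 and Lef1, but not Apc), against 61.4% of all protein-coding genes of that length. Of the 3 genes of 20 to 100 kb, Axin2 had one and Rnf43 and Ctnnb1 did not, against 52.7%. Of the 2 genes under 20 kb, Glul had one and Tbx3 did not, against 42.0%. Close to the genes, 3 of the 10 (Axin2, Znrf3 and Tcf7l2) had a shared summit within 10 kb, against 26.0% of all genes. The same 3 had one inside the gene, against 13.5% of all genes. That share was not split by length, and the median gene length was 17.2 kb for all genes and 87.2 kb for the 10. At 100 kb 8 of the 10 had one, against 62.6%. Of the 10 genes, 5 (Axin2, Glul, Znrf3, Tcf7l2 and Lef1) had 2 or more within 50 kb, against 20.9% of all genes, whose median window was 117 kb where that of the 10 was 187 kb.

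Axin2 is a scaffold of the destruction complex and a direct target of Wnt signalling that acts as negative feedback. It lies on the plus strand of chromosome 11, from 108917828 to 108950783, and no other protein-coding gene reached into its window. Both replicates marked its promoter: replicate 1 had a summit at 108920240 and replicate 2 at 108920241, a difference of 1 bp. These bases lay 109 and 108 bp before the transcription start that RefSeq lists at 108920349, and inside the gene, whose outermost RefSeq end lies further upstream. Promoter windows of 300 bases held a summit of both replicates in 5.29% of 21263 windows of protein-coding genes. The score was 4.50 in replicate 1 (rank 17647) and 8.04 in replicate 2 (rank 8805), so the position matched closely while the score was low in replicate 1. The sequence around this shared summit is printed because it is the only shared summit in a promoter window of the 6 genes that have one, with the 11 bases centred on the replicate 1 summit in capitals (GRCm38.p6, chr11:108920165-108920315, plus strand).
Axin2: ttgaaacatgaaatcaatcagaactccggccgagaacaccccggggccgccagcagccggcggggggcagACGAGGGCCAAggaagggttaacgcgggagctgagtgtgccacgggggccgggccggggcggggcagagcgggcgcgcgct

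This stretch is 70.9% G and C. Axin2 had a further shared summit 19612 bp before the gene in replicate 1 and 19577 bp in replicate 2, which scored 6.82 and 9.51. The remaining summits were not shared: replicate 1 had one 3544 bp beyond the other end of the gene (5.64), and replicate 2 had one 36428 bp beyond it (3.19). The 50 kb limit left out a much higher-scored pair: Axin2 was the nearest protein-coding gene to a shared summit 61200 bp from it, at 109011983, with 32.3 in replicate 1 (rank 290) and 21.7 in replicate 2 (rank 854).

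Apc, the large tumour suppressor protein of the destruction complex, differed most between the replicates in number. Its gene lies on chromosome 18 from 34220297 to 34322190. Replicate 1 had 2 summits, both inside the gene, at 34235592 (8.51) and 34239784 (6.99). Replicate 2 had 6, of which 4 were inside the gene, at 34221716 (6.18), 34235772 (6.44), 34259222 (7.90) and 34285690 (4.61). Its other 2, with 3.18 and 3.56, lay inside the neighbouring gene Reep5, at 25065 and 39053 bp from Apc. None was shared, although the summits at 34235592 and 34235772 stood only 180 bp apart.

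Ctnnb1 encodes beta-catenin, which carries the Wnt signal into the nucleus. It lies on the plus strand of chromosome 9 from 120933400 to 120960507, and its window of 127 kb was empty in both lists. The nearest summit lay 102515 bp away in replicate 1 (7.32) and 61496 bp away in replicate 2 (3.29). Of all protein-coding genes, 79.4% had a summit of at least 1 replicate within 50 kb and 20.6% had none.

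Tcf7l2 encodes the TCF/LEF family member that is the main partner of beta-catenin in adult hepatocytes. It had the most shared summits of the 10 genes, with 4, all inside the gene, from 8 summits in replicate 1 and 9 in replicate 2. It is also the longest, on the plus strand of chromosome 19 from 55741797 to 55933659, and no other protein-coding gene reached into its window. Among all protein-coding genes, 3.06% had 4 or more shared summits within 50 kb. That share was not split by length, and the median window was 117 kb for all genes, against 292 kb for Tcf7l2. Its density of shared summits, 1.37 per 100 kb of window, was higher than that of 84.1% of genes.

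The shared summit nearest the start of Tcf7l2 lay 32548 bp into the gene in replicate 1 and 32525 bp in replicate 2, with scores of 5.89 and 7.05. The other 3 pairs were grouped further in, within 10534 bp in replicate 1 and 10488 bp in replicate 2. The pair at 55862065 and 55862014 scored 8.74 and 8.78, the closest agreement of scores among the 13 pairs. The pair at 55865905 and 55865871 scored 8.66 and 6.93, and the pair at 55872599 and 55872502 scored 5.60 and 6.52. All 4 pairs were of middling rank, between 7581 and 15138 in their lists. Replicate 2 placed 2 more summits in or beside the group, at 55868331 (5.22) and 55873386 (8.88), the latter 787 bp from a replicate 1 summit.

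At the start of Tcf7l2 the replicates differed. Replicate 1 had a summit at 55741940, 130 bp after a listed transcription start, with a score of 5.75, and the nearest replicate 2 summit was 30067 bp away. The remaining unshared summits of replicate 1 were inside the gene at 55754676 (7.91) and 55797810 (3.03) and before it at 55712875 (5.41). Those of replicate 2 were inside at 55795466 (8.81) and 55897312 (8.87) and before the gene at 55711873 (8.41). The summits before the gene stood 1002 bp apart, beyond the 100 bp that counts as shared. The protein-coding genes outside the lists most like Tcf7l2 in window length and number of shared summits, out of 21887, were Myo10, Lrch1 and Prkch, each with 4 shared summits in windows of 291 to 293 kb, against 292 kb for Tcf7l2. They were picked for this match, so it does not show whether 4 is a usual number for such a window.

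Lef1, another DNA-binding factor of the TCF/LEF family, had 2 summits in each replicate and both were shared, yet none lay inside the gene (plus strand of chromosome 3, 131110297 to 131224357). The first pair stood before the gene, at 24783 bp in replicate 1 and 24757 bp in replicate 2, with scores of 6.83 and 2.98. The second lay 47134 and 47059 bp beyond the gene and inside its neighbour Hadh, a mitochondrial enzyme of fatty acid oxidation, with scores of 13.8 and 5.09. Both pairs scored more than 2 times higher in replicate 1, with a log2 ratio of replicate 2 over replicate 1 of -1.20 and -1.44. The second pair ranked 3152 in replicate 1 and 17177 in replicate 2.

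Promoter windows, with 250 bases before and 50 bases from a listed start, were available for 6 of the 10 genes, as 12 windows of Axin2, Glul, Rnf43, Tcf7l2, Lef1 and Ctnnb1. Some windows of Lef1 and of Ctnnb1 overlap, so the 12 are not separate stretches and some bases are counted more than once. The windows were searched on both strands for letters of an HNF4 motif, CAAAGTCCA, and of a TCF/LEF motif, CTTTGAT. Neither was in any of the 12 windows, and 0.451% and 3.22% of all 21263 windows held them. The shorter HNF4 core CAAAGTC was in 1 of the 12, at a start inside Lef1, against 4.14% of all windows. The shorter TCF/LEF core CTTTG, whose reverse complement CAAAG is also the beginning of both HNF4 forms, was in 6 of the 12, all of Tcf7l2 or Lef1, against 51.2% of all. Windows with a summit of either replicate numbered 2841. They held CAAAGTC in 3.70% of cases, below the 4.14% of all windows. They held CAAAGTCCA in 0.458%, near the 0.451% of all windows. The Lef1 stretch is printed because it holds the HNF4 core while neither list has a summit in the gene, with the core in capitals (GRCm38.p6, chr3:131156138-131156218, plus strand).
Lef1: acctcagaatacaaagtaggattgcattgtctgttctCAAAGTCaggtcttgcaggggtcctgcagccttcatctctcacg

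Lgr5, a receptor for R-spondins and a Wnt target that marks stem cells of the gut and pericentral hepatocytes, had 1 shared summit, and it was the highest-scored of all 13 in replicate 2. The gene lies on chromosome 10 from 115450314 to 115587780, and no strand is given for it in the tables used. The summit lay outside the gene, at 115439253 in replicate 1 (11061 bp away) and 115439292 in replicate 2 (11022 bp away). Its score was 11.5 in replicate 1 and 28.7 in replicate 2, with a mean of 20.1 ± 12.2 (SD, n = 2), and its ranks were 4684 and 372. Zfc3h1 was nearer to it than Lgr5, at 6481 bp, so it cannot be assigned to Lgr5 by position. Replicate 2 had a further summit 32140 bp beyond the other end (4.23), and neither replicate had one inside the gene.

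Rnf43 and Znrf3 encode related membrane ubiquitin ligases that remove Wnt receptors from the cell surface and are themselves inhibited when R-spondins bind Lgr receptors. Znrf3 (chromosome 11, 5276329 to 5444847) had 2 shared summits. One lay just outside the gene, 223 bp from its end of higher coordinate in replicate 1 and 290 bp in replicate 2, with scores of 12.9 and 7.95. The other lay inside, at 5304634 and 5304549, with 6.29 and 4.42. Replicate 2 had a further summit nearer to Xbp1, a regulator of the unfolded protein response (6.29, 40705 bp from Znrf3).

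Rnf43 (plus strand of chromosome 11, 87663087 to 87735539) had 2 summits in each replicate in the same 2 places, but too far apart to count as shared. Inside the gene they stood 197 bp apart, at 87689656 (4.31) and 87689459 (9.99). Beyond its end they stood 166 bp apart, at 87736927 (4.93) and 87737093 (6.43), and were nearer to Supt4a, a transcription elongation factor. With 200 bp allowed, Rnf43 and Apc joined the genes with a shared summit, making 8 of 10, against 52.8% of all protein-coding genes at that distance. Among shared pairs of the 10 genes the widest gap was 97 bp, at Tcf7l2, and the median was 39 bp.

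Glul encodes glutamine synthetase, the classic marker of the hepatocytes next to the central vein. Its gene is short (plus strand of chromosome 1, 153899929 to 153909723) and had the highest density of shared summits of the 10, 1.82 per 100 kb, above that of 90.3% of genes. Both shared summits were far from it. At 153958088, 48365 bp beyond the gene, both replicates had their summit on the same base, with 15.8 in replicate 1 and 10.7 in replicate 2. Before the gene, the pair at 153857313 and 153857228 scored 7.04 and 8.19 and lay nearer to Teddm2.

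At the Glul promoter, replicate 1 alone had a summit, at 153899809, 120 bp before the transcription start, with a score of 6.37 (rank 12951). The nearest replicate 2 summit was 22228 bp away, at 153877581, with 3.11, beside Teddm1b. Of all promoter windows, 9.77% held a summit of replicate 1. The stretch is printed for comparison with that of Axin2, with the 11 bases centred on the summit in capitals (GRCm38.p6, chr1:153899734-153899884, plus strand).
Glul: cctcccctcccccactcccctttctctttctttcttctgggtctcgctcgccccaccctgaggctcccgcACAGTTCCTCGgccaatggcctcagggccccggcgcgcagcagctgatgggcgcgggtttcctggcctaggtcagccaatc

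The Glul stretch is 66.9% G and C, and neither stretch held any of the motif letters searched. G and C made up a median of 65.8% of the 12 windows of the 10 genes, some of which overlap. The median was 56.3% for all promoter windows and 60.3% for windows with a summit of both replicates. The windows of Ctnnb1, which had no summit, were at 75.3% and 75%.

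Tbx3, a T-box transcription factor and Wnt target of pericentral hepatocytes, had a summit in replicate 2 alone. It lay inside the gene, 289 bp from its end of lower coordinate (chromosome 5, 119670534 to 119684724), at 119670823, with a score of 9.80 (rank 6112). Replicate 1 had none within 50 kb, and its nearest was 90009 bp from the gene (11.3). No other protein-coding gene reached into the window.

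**Figure D2:**
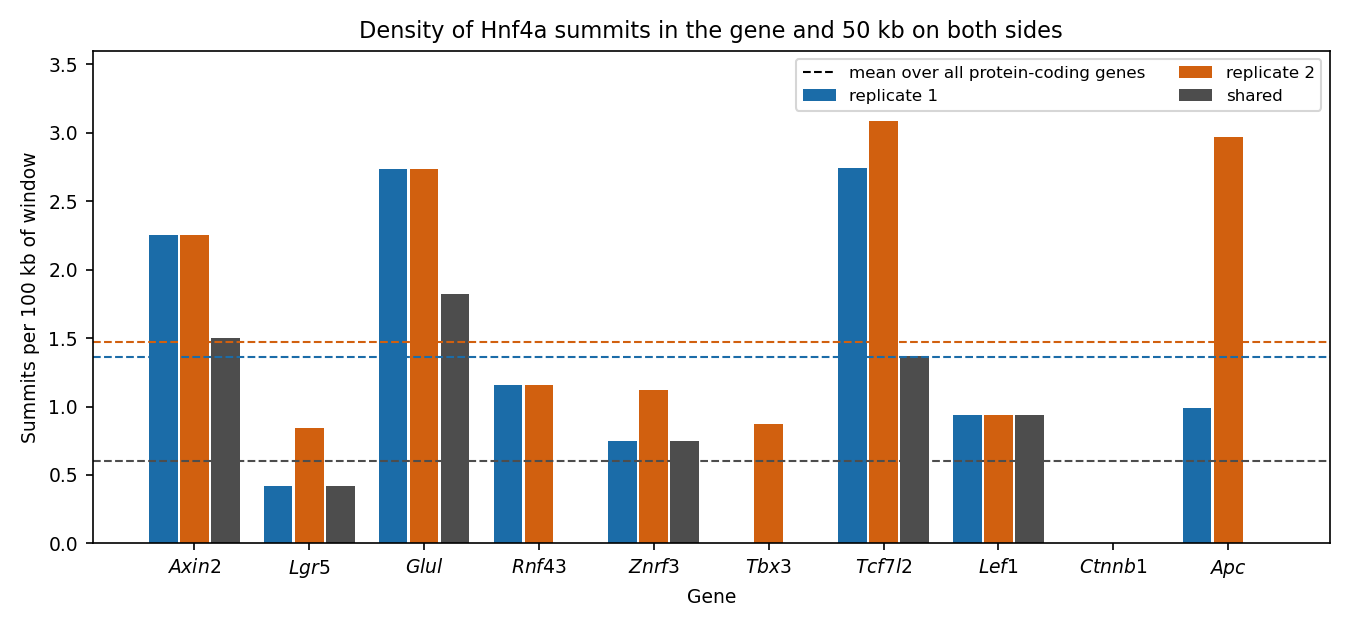
Number of summits per 100 kb of window (gene plus 50 kb on both sides) at the 10 genes in replicate 1, replicate 2 and shared, as bars from 0; dashed lines of the same colours are the means over all 21887 protein-coding genes. Axin2, Glul and Tcf7l2 lie above the mean in all 3 measures, and Apc lies above it in replicate 2 alone.

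By density of shared summits the order was Glul (1.82 per 100 kb), Axin2 (1.50), Tcf7l2 (1.37), Lef1 (0.934), Znrf3 (0.745) and Lgr5 (0.421), with the remaining 4 genes at 0. These steps rest on 1 to 4 shared summits per gene, so neighbours in the order are not separated beyond what 1 summit would change. The mean over the 10 genes was 0.680 per 100 kb against 0.599 over all protein-coding genes.

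The shared summits at the 10 genes had lower median scores than shared summits in general. Their median was 7.04 in replicate 1 and 7.95 in replicate 2, while all 9193 shared summits had medians of 9.93 and 9.61. Only 2 of the 13 pairs, at Lgr5 and Glul, scored 10 or more in both replicates (15.4%), against 33.8% of all shared pairs. Of all summits at the 10 genes, shared or not, 4 of 23 in replicate 1 (17.4%) and 2 of 31 in replicate 2 (6.45%) reached 10, while 29.0% and 24.5% of the whole lists did. The medians of all summits did not go one way: the 10 genes had 6.82 against 7.32 of the whole list for replicate 1, and 6.93 against 6.67 for replicate 2. Unshared summits at the 10 genes had medians of 5.69 and 6.36, against 6.02 and 5.47 of all unshared summits. None of the 23 was in the top 10% of replicate 1, and 1 of the 31, at Lgr5, was in that of replicate 2.

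**Figure D3:**
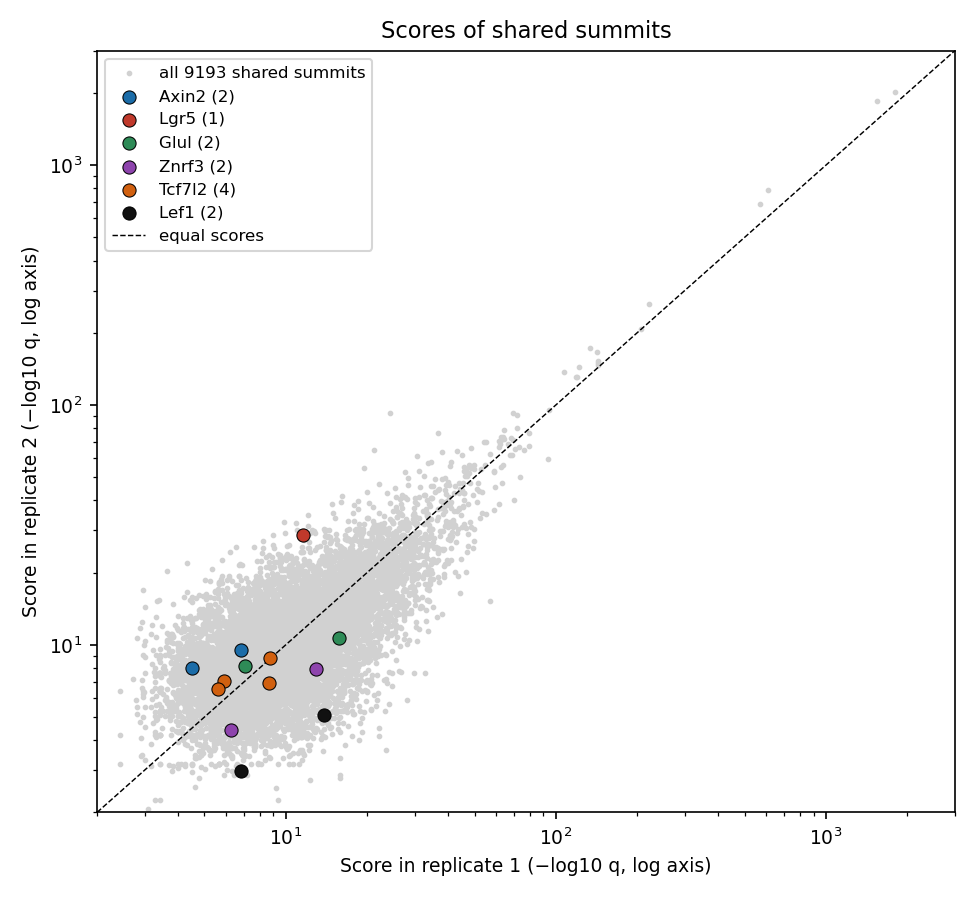
Score in replicate 1 against score in replicate 2 (−log10 q, both axes log) for the 13 shared summits at the 10 genes in colour and for all 9193 shared summits in grey, with a dashed line of equal scores. Lgr5 stands above the line at 11.5 and 28.7, both Lef1 pairs stand below it, and the 4 Tcf7l2 pairs stand close to it.

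Scores of the 13 pairs were higher in replicate 2 in 7 cases, with a median log2 ratio of replicate 2 over replicate 1 of 0.01, against -0.04 over all shared pairs. The ratio ran from -1.44 at Lef1 to 1.32 at Lgr5. In 3 pairs, those of Lef1 and Lgr5, the scores differed by 2 times or more (23.1%), as they did in 13.1% of all shared pairs. Of the 13 pairs, 6 lay inside the gene, 1 within 10 kb of it and 6 further out. For 3 of the 13, at Lgr5, Glul and Lef1, another protein-coding gene was nearer or held the summit.

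The other genes of the pathway and of zonation were examined by the same rule in 8 lists holding 113 genes, all matched to RefSeq by name or synonym. Of these 113, 65 had a shared summit within 50 kb (57.5%) and 32 within 10 kb (28.3%), close to the 47.9% and 26.0% of all genes. For the 87 genes of the Wnt lists alone the shares were 51.7% and 24.1%. The 116 shared summits of the 113 genes scored a median of 9.23 (replicate 1) and 9.48 (replicate 2), above the medians at the 10 genes and just below those of all shared summits.

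Of 17 Wnt receptors and related surface proteins, 10 had a shared summit within 50 kb (58.8%), against 47.9% of all genes. Within 10 kb 5 had shared summits (29.4%), against 26.0%. Lgr4, an R-spondin receptor, had the best-ranked of them at 109992937 on chromosome 2, inside the gene, with 45.1 in replicate 1 (rank 95) and 37.8 in replicate 2 (rank 159), and 3 shared summits inside the gene in all. Its relative Lgr5 had none inside, and Lgr6, looked at after its values were seen, had 1. Fzd3, Ryk and Fzd4, further Wnt receptors, had their best shared summits outside the gene, with 33.2 and 24.8, 12.7 and 14.0, and 22.5 and 12.1. That of Fzd3 lay 155 bp from Extl3, and that of Fzd4 inside Tmem135.

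Of 23 Wnt ligands and R-spondins, 8 had a shared summit within 50 kb (34.8%), against 47.9% of all genes. Within 10 kb 2 had one (8.70%), against 26.0%. The best-ranked was near Wnt2b, with 23.7 in replicate 1 and 25.7 in replicate 2, but it lay 39055 bp from that gene and 1151 bp from Cttnbp2nl. The next were those of Wnt11 (12.7 and 14.3, with Wnt11 the nearest gene at 18657 bp), of Wnt5b (9.91 and 9.27, inside Adipor2) and of Wnt10b (6.23 and 14.1, inside Arf3). Of the ligands and R-spondins named here, Wnt11 alone was the nearest gene to its best summit. Wnt5b also had a shared summit inside the gene (9.77 and 6.89) and another 414 bp outside it (6.43 and 14.7).

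Of 12 genes of the destruction complex and its regulators, 10 had a shared summit within 50 kb (83.3%) and 4 within 10 kb (33.3%), against 47.9% and 26.0% of all protein-coding genes. Axin1, the constitutive counterpart of Axin2, had a shared summit inside the gene with 27.2 in replicate 1 (rank 484) and 30.6 in replicate 2 (rank 287). Its window held 4, and the others were nearer to Pgap6 or lay inside or beside Fam234a. Gsk3b, the kinase that phosphorylates beta-catenin, had 4 as well, 3 of them inside the gene, but its best-ranked one (15.2 and 13.2) lay inside Nr1i2, a receptor for foreign compounds. That of Gsk3a, the related kinase, lay inside Cic (19.9 and 26.7). Gsk3a had another shared summit 27 bp outside its own end (12.6 and 18.7). The best-ranked one of Btrc, the ubiquitin ligase subunit that recognises phosphorylated beta-catenin, lay 15157 bp from the gene (15.0 and 18.8). Apc2, looked at after its values were seen, had 2 shared summits in its window, one 29 bp from Dazap1 and the other inside Plk5.

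Of 11 other nuclear factors, 5 had a shared summit within 50 kb (45.5%), against 47.9% of all genes. Each of the 5 had one within 10 kb (45.5%), against 26.0%. Tcf7l1, a mostly repressive TCF/LEF member, had its best-ranked one 6458 bp outside the gene (16.2 in replicate 1 and 12.4 in replicate 2), nearer to Tgoln1, and Tcf7, looked at after its values were seen, had none. The Groucho-type corepressor genes Tle3 (16.9 and 27.6), Tle2 (15.5 and 13.4) and Tle1 (8.89 and 18.9) were the others with the best ranks. The Tle3 and Tle1 summits were inside the gene, and that of Tle2 lay 40968 bp outside it, inside Ankrd24. The shared summit of Tle2 within 10 kb, at 2944 bp, scored 3.61 and 5.97. Of 16 secreted and feedback inhibitors, 6 had a shared summit within 50 kb (37.5%), against 47.9% of all genes. Within 10 kb 3 had one (18.75%), against 26.0%. That of Kremen1 (named after its values were seen) is the pair inside Znrf3 described above. The 6 genes included Kremen2, a receptor for Dkk proteins, with 21.2 and 14.5 at 629 bp from the gene and inside Paqr4. The best-ranked summits of Notum (11.0 and 9.57), Dkk2 (8.66 and 13.5) and Apcdd1 (6.08 and 6.60) lay 23917 to 36521 bp away. That of Notum was inside Pcyt2, and that of Apcdd1 was 104 bp from Napg. Dkk2 had another shared summit, inside the gene (7.39 and 7.92). Of 8 further Wnt target genes, 6 had a shared summit within 50 kb (75%), against 47.9% of all genes. Within 10 kb 2 had one (25%), near the 26.0% of all genes. Cd44, a hyaluronan receptor, led with 38.2 and 29.7, at 31352 bp outside the gene. It had 6 shared summits in its window, 2 of them inside the gene, and some are also counted for Slc1a2. The best-ranked summit of Tnfrsf19 (19.6 and 16.0) lay inside the gene. Those of Ccnd1 (14.6 and 12.5) and Myc (12.1 and 11.4), which promote cell division, lay 24150 and 48744 bp outside.

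**Figure D4:**
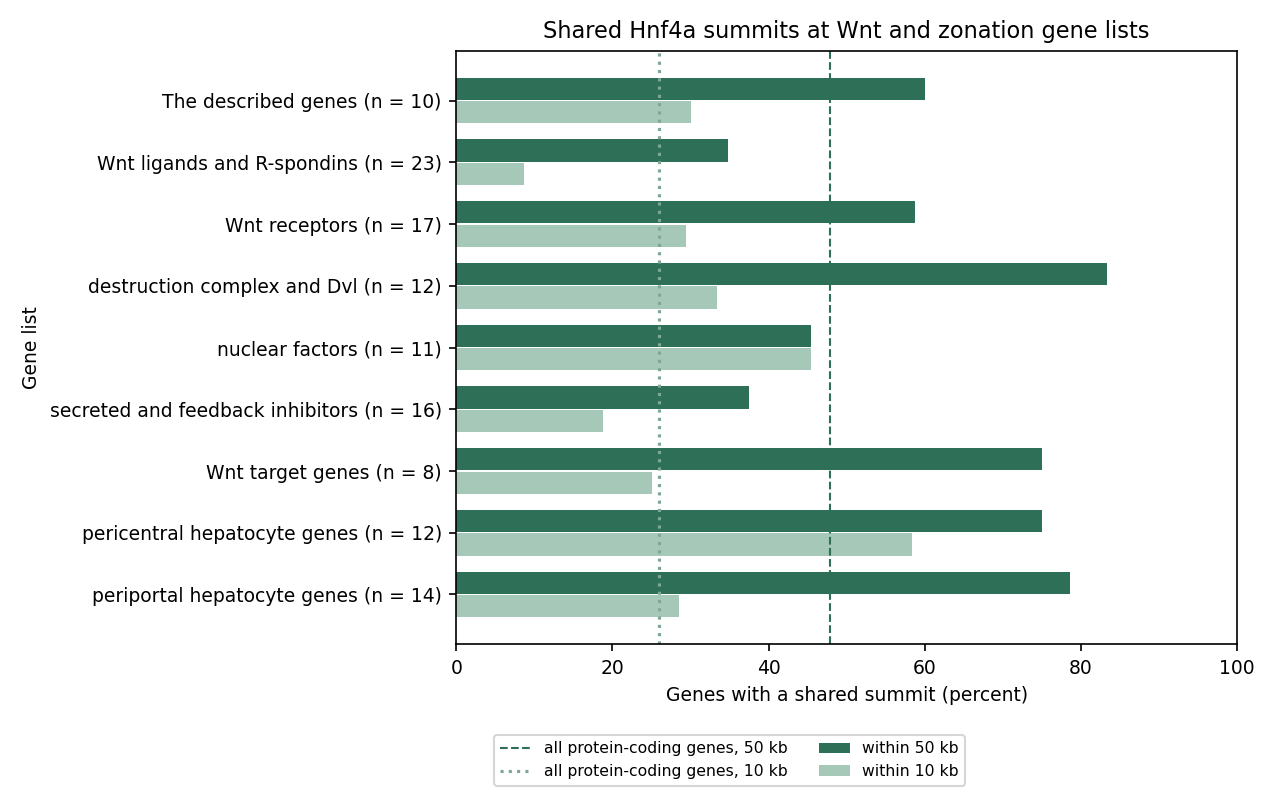
Percent of genes with a shared summit within 50 kb (dark bars) and within 10 kb (light bars) for the 10 genes and the 8 further lists, with the number of genes in each; vertical lines are the percent of all protein-coding genes. Pericentral genes stand at 75% and 58.3%, and Wnt ligands at 34.8% and 8.70%.

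Of 12 pericentral genes, 9 had a shared summit within 50 kb (75%) and 7 within 10 kb (58.3%), against 47.9% and 26.0% of all protein-coding genes. Of 14 periportal genes, 11 had one within 50 kb (78.6%) and 4 within 10 kb (28.6%), the latter near the 26.0% of all genes. The best-ranked pericentral ones were those of Cyp1a2, a drug-oxidising enzyme (25.4 in replicate 1 and 20.6 in replicate 2, inside Cyp1a1), and of Nr1i3, a sensor of foreign compounds (13.8 and 14.4, inside Apoa2). That of Slc1a2, a glutamate transporter, followed (10.9 and 12.1, inside Cd44). Each of these 3 summits lay inside another gene, and all shared summits of the Slc1a2 window are also counted for Cd44. Slc1a2 also had a shared summit inside the gene (18.0 and 8.51). So did Oat (10.6 and 8.38) and Cyp27a1 (4.19 and 15.9), both named here after their values were seen. Cyp2e1, a pericentral enzyme named here after its values were seen, had no summit in either list.

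Of the periportal genes, Alb had the best-ranked summit (69.5 in replicate 1 and 92.3 in replicate 2). That of Cdh1, the epithelial cadherin, lay inside the gene (19.0 and 21.6), and that of Cyp2f2 (17.7 and 18.6) lay outside, nearer to Rab4b. Urea cycle enzymes of this list were looked at after their values were seen. Cps1 and Ass1 had no shared summit, although Cps1 had 2 summits in each replicate and Ass1 had 3 in replicate 2. Asl and Arg1 each had 1 shared summit within 50 kb. That of Asl (8.95 and 4.45) lay inside Vkorc1l1, and that of Arg1 (8.21 and 4.01) lay 141 bp from Med23. The highest score at the 10 genes was 15.8 in replicate 1, at Glul, and 28.7 in replicate 2, at Lgr5.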

How the data were processed

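Per the submitters' processing notes, fastp 0.23.4, HISAT2 2.0.5 and MACS2 2.2.9.1 were used with build mm10. The deposited files hold 1-base summits per library with a score. The score was taken as the authors' −log10 q-value for 2 reasons. A q cut-off of 0.01 stands in the peak names, and the lowest scores were 2.04 in replicate 1 and 2.01 in replicate 2. Use of a control library, removal of duplicates and depth are not given in the sources used here. Scores were used to describe and rank. Summits of both replicates were paired one to one, nearest first, within 100 bp, and a pair counted for a gene if both summits lay in it or within 50 kb. Gene ends, promoter windows and strands came from RefSeq tables of GRCm38.p6; strand was known for 6 of the 10 genes and exons for none. Pairing was tested on simulated data. No test, p-value or scaling was applied. The 10 genes and the lists were chosen with earlier results of these data known. Named list genes are up to 4 per list by the worse rank of both replicates of their best shared summit; others are marked, and some genes that this rule names are not reported here. Alternatives covered sharing distance, window, score, list length, nearest gene, background and motif letters. Python 3.11.15, numpy 2.4.6, pandas 2.3.3 and matplotlib 3.10.9 were used.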

Additional observations from a re-analysis of the deposited data

How the results depend on the processing

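No paired analysis was possible because the series has 1 group. A summit was found at 9 of the 10 genes with both replicates, and at 8 to 9 with 1 replicate left out. The values for 6 genes with a shared summit, 13 shared pairs, a median of 0.583 shared per 100 kb, 23 and 31 summits, 65 of 113 list genes and 47.9% of all genes changed as follows by more than 1.5 times. Within gene bodies they were 3, 6, 0, 12, 16, 18 and 13.5%. Within 10 kb they were 3 genes, 7 pairs, a median of 0, 18 summits in replicate 2, 32 list genes and 26.0%. At scores of 10 or more they were 2 genes (Lgr5 and Glul), 2 pairs, a median of 0, 4 and 2 summits, 29 list genes and 22.0%. With the best 10000 summits of each list they were 4 pairs, a median of 0, and 8 and 14 summits. Sharing within 50 bp gave 7 pairs and a median of 0.211, and counting only summits nearest to the gene gave a median of 0.234. Shorter motif cores raised the share of promoter windows from 0.451% to 4.14% for HNF4 and from 3.22% to 51.2% for TCF/LEF. The split by gene length was chosen after seeing the data. Fewer bases or summits were counted under the narrower windows and stricter scores. Depth is unknown, so a missing summit may lie below the authors' threshold.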
